A study of Homo sapiens with 20 samples.

Results

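Collagen chains are the genes of the family whose symbols read COL, a type number, A and a chain number. The deposited table held 24222 entries, each a RefSeq identifier, and 44 of them carried such a symbol, 1 entry for each of 44 genes. Of these, 11 code for chains of fibrillar collagens, 6 for the type IV chains of basement membranes, and 27 for chains of other collagens.

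Each collagen molecule is a triple helix of 3 chains, and for some types, IV and VI among them, the helix joins chains of different genes. Fibrillar collagens pack into the banded fibres of connective tissue and are made in the liver and bile ducts mainly by fibroblasts and stellate cells. Type IV collagen forms the sheet on which epithelium sits, and type XVII and type VII tie epithelial cells to that sheet and to the stroma beneath it. Type VI forms beaded microfibrils, and fibril-associated types such as XII attach to fibres rather than forming them.

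The values came from RNA sequencing of 20 established human biliary tract cancer cell lines, all grown untreated in the same medium, with 1 library per line. By labelled tumour site, 3 lines are Ampullary, from the opening of the bile duct into the gut, 5 Extrahepatic, 7 Gallbladder and 4 Intrahepatic, and the line OZ carries both bile duct labels. By labelled origin, 7 lines are Metastatic, of which 6 came from ascites and 1 from liver, and 13 are Primary. Lines serve as the replicates here, since no line was sequenced more than once. Levels are given as CPM, counts per M counts (M for mega) on TMM-scaled library sizes, from totals of 10.47 to 15.41 M counts per line. A count of 0 allows up to 3 counts, which is 0.206 to 0.294 CPM, and such floors and all intervals on single lines cover counting error only.

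1 line stood apart before any test. HuH28, an Intrahepatic Primary line, had the lowest TMM scaling factor, 0.82, and the lowest epithelial level of all lines. Its EPCAM, an epithelial adhesion protein, was at 0.257 CPM, its CDH1, or E-cadherin, at 4.88 CPM, and its KRT19, a bile duct keratin, at 1.03 CPM, where the next lowest line had 147 CPM of KRT19. CDH1 was lower still in OCUG-1 (0.699 CPM), G415 (0.942 CPM) and SNU-1079 (1.73 CPM). Of the same markers, KRT7 was at 59.4 CPM in HuH28 but 0.233 CPM in Mz-ChA-2, and SOX9 at 139 CPM in HuH28 but 7.84 CPM in TGBC14TKB. Of 10 fibroblast markers, 9 reached 1 CPM in HuH28, with THY1 at 1106 CPM, POSTN at 179 CPM, PDGFRA at 133 CPM and FAP at 128 CPM, and DPT at 0 counts. Their sum was 1648 CPM in HuH28, 495 CPM in TGBC2TKB, 109 CPM in Mz-ChA-2 and at most 11.2 CPM elsewhere. Among the immune markers, PTPRC, CD3E and MS4A1 stayed at or below 1.57 CPM in every line, CSF1R reached 2.13 CPM and CD14 12.9 CPM. CD68, a lysosomal protein of macrophages that other cells also make, stood at 437 CPM in G415 and 193 CPM in HuH28, and LYZ, a lysozyme also made by glandular epithelium, at 3029 CPM in SNU-245 and 1129 CPM in SNU-869. In whole cultures, more cells of a type and more RNA per cell cannot be told apart. What part other cells or a change of state played in the collagen levels of HuH28 was not tested. Site and score values of single chains that moved by over 1.5 times without this line are given with and without it. Counts at an unadjusted p, DESeq2 counts and medians over the chains were not computed without it.

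Collagen transcripts were present in every line, but the set differed from line to line. Of the 44 chains, 24 reached 100 CPM in at least 1 line, 35 reached 10 CPM, 9 stayed below 10 CPM everywhere, and COL19A1, COL9A1 and COL6A5 stayed below 1 CPM everywhere. Only COL6A1, a type VI chain, and COL18A1, the source of endostatin, were at 1 CPM or more in all 20 lines. Summed over the family, HuH28 had 24481 CPM, SNU-1079 8714 CPM, OCUG-1 6719 CPM, TGBC2TKB 4524 CPM, HuCCT1 3676 CPM and Mz-ChA-2 2736 CPM, and the other lines lay between 757 CPM in SNU-308 and 1843 CPM in SNU-478. In HuH28, collagens took 2.01% of all counts (exact binomial 95% interval 2 to 2.01), in SNU-308 0.0791% (0.0777 to 0.0806). These sums count reads and are not divided by gene length, so long chains weigh more.

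**Figure D1:**
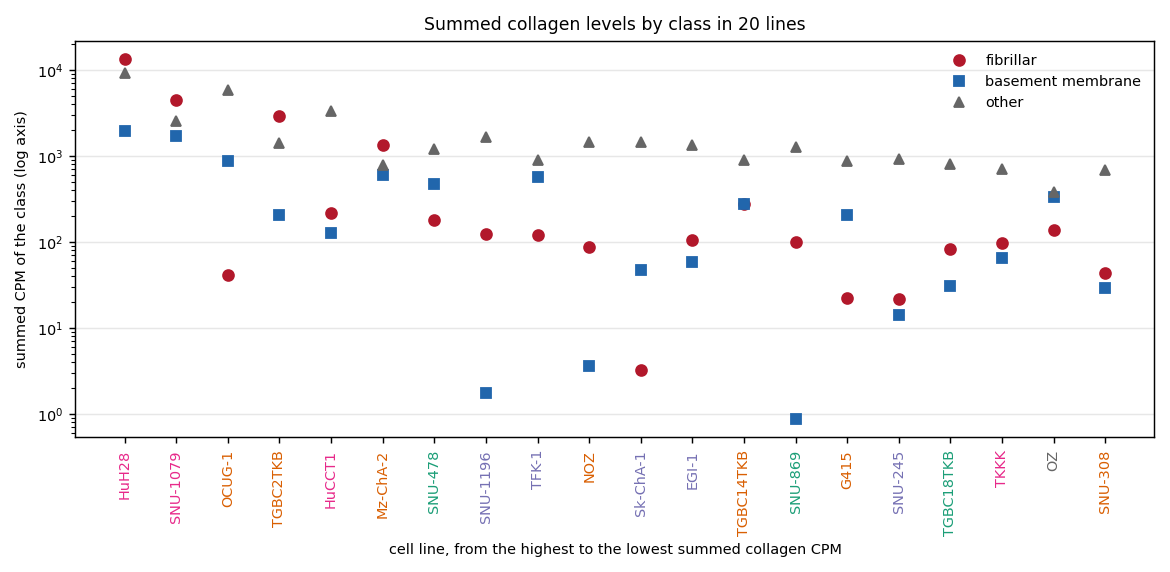
Summed CPM (log axis) of the fibrillar, basement membrane and other collagen genes in each of 20 lines, ordered by the sum over all collagens, with line names coloured by labelled site. Fibrillar sums ran from 3.28 CPM in Sk-ChA-1 to 13460 CPM in HuH28, while the sum of the other collagens stayed between 378 CPM in OZ and 9078 CPM in HuH28.

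The classes varied by different amounts. The fibrillar sum had a median of 112 CPM over the 20 lines and reached 13460 CPM in HuH28, 4465 CPM in SNU-1079, 2907 CPM in TGBC2TKB and 1353 CPM in Mz-ChA-2, against 3.28 CPM in Sk-ChA-1 at the low end. In those 4 lines fibrillar chains took 55% (HuH28), 51.2% (SNU-1079), 64.3% (TGBC2TKB) and 49.4% (Mz-ChA-2) of the collagen counts. The basement membrane sum had a median of 165 CPM and ran from 0.87 CPM in SNU-869 to 1943 CPM in HuH28, with 1708 CPM in SNU-1079 and 869 CPM in OCUG-1. The other collagens had a median of 1222 CPM and a smaller range. The order of lines therefore differed by class: OCUG-1 ranked 3 of 20 for basement membrane chains and 17 of 20 for fibrillar ones.

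1 chain often made up much of a line's total. COL17A1, the transmembrane collagen of hemidesmosomes, held 93% of the collagen counts of SNU-245 (exact binomial 95% interval 92.4 to 93.5). COL6A1 held 66.8% in OCUG-1 (66.5 to 67.1), COL7A1 59.1% in SNU-308 (58.2 to 60) and COL1A1 47% in SNU-1079 (46.7 to 47.3). HuH28 had the highest level of 10 of the 44 chains, Mz-ChA-2 of 6, TGBC14TKB of 5 and SNU-1079 of 4.

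**Figure D2:**
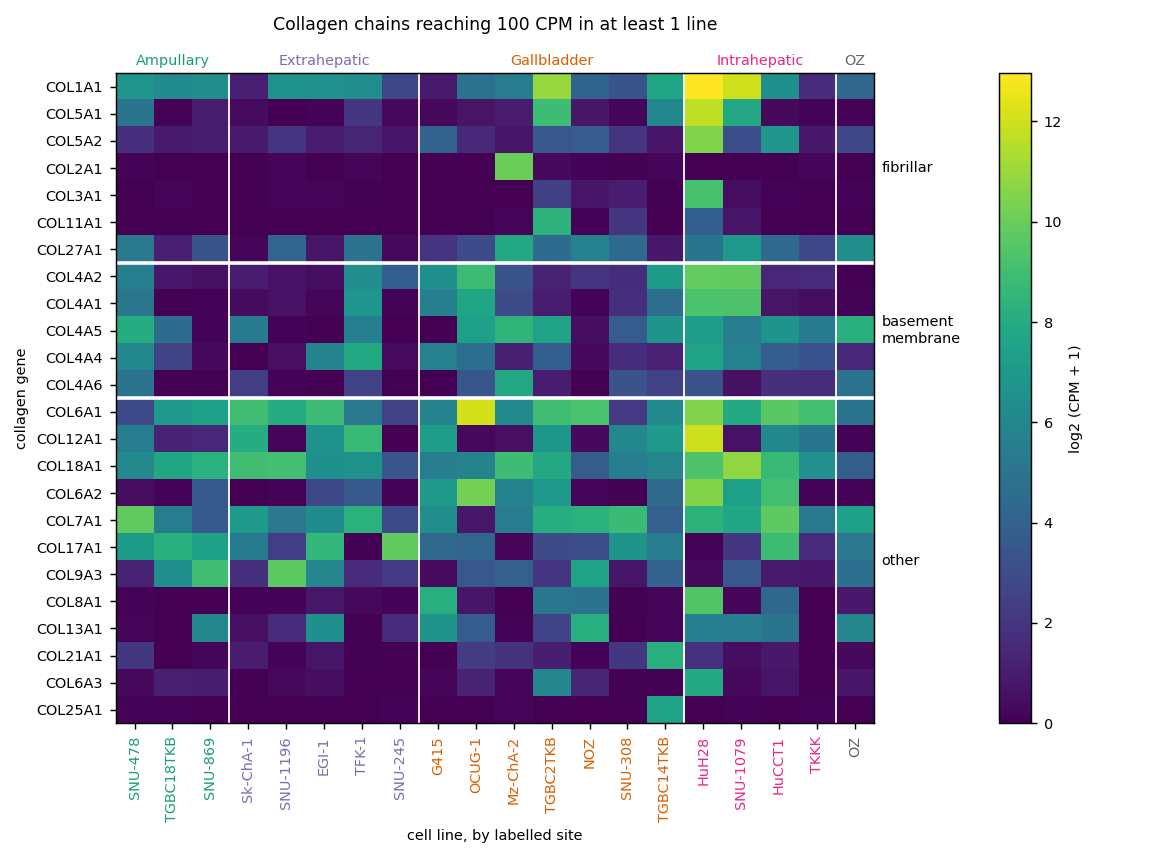
Levels, as log2 (CPM + 1), of the 24 collagen genes that reached 100 CPM in at least 1 of 20 lines, with genes grouped by class in rows and lines grouped by labelled site in columns. COL6A1, COL18A1 and COL7A1 are present in nearly every column, while COL2A1, COL25A1 and COL21A1 each exceed 100 CPM in 1 line.

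Among the fibrillar chains, COL1A1 (NM_000088), which codes for the alpha1 chain of type I collagen, had the highest level per length, 1185 CPM per kb in HuH28, against 396 CPM per kb for COL5A1, the next. It stood at 7970 CPM in HuH28, 4093 CPM in SNU-1079 and 2015 CPM in TGBC2TKB, with a median of 81.5 CPM over 20 lines and a lowest value of 0.942 CPM in G415. These 3 lines lay well above the fourth, TGBC14TKB, at 204 CPM, and a further 11 lines lay between 16.9 and 107 CPM. COL1A2 (NM_000089), the alpha2 chain that joins a pair of alpha1 chains in the usual type I molecule, was almost absent from the same lines. It had 16.8 CPM in TGBC2TKB, 0.685 CPM in HuH28, at most 0.253 CPM in 5 more lines, and 0 counts in 13 lines. In SNU-1079, COL1A1 had 49818 counts and COL1A2 had 0. Divided by transcript length, COL1A1 was 9359 times COL1A2 in HuH28, 96.7 times in TGBC2TKB and, with COL1A2 set at its floor of 3 counts in that library, at least 13357-fold higher in SNU-1079. COL1A1 was at 10 CPM or more with COL1A2 below 1 CPM in 14 of the 15 lines that reached 10 CPM of COL1A1.

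Type V chains, which set the diameter of type I fibres, were found in few lines. COL5A1 stood at 3353 CPM in HuH28, 491 CPM in TGBC2TKB, 226 CPM in SNU-1079, 64.6 CPM in TGBC14TKB and 30.9 CPM in SNU-478, and at or below 3.19 CPM in the other 15 lines. COL5A2 stood at 1468 CPM in HuH28 and 107 CPM in HuCCT1, then at 15.8 CPM in G415, 12.1 CPM in NOZ and 10.5 CPM in TGBC2TKB, with a lowest value of 0.686 CPM in SNU-245. The 2 chains were at 10 CPM together in 2 lines, HuH28 and TGBC2TKB. COL5A3 was highest in TKKK, at 85.9 CPM, and next in HuH28, at 31.6 CPM.

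Several fibrillar chains belonged to 1 line. COL2A1 (NM_001844), the main collagen of cartilage, stood at 1054 CPM in the liver metastasis line Mz-ChA-2 and at or below 0.247 CPM, no more than 3 counts, in every other line. COL3A1, the type III chain of extensible tissue, stood at 588 CPM in HuH28 and 4.52 CPM in TGBC2TKB. COL11A1, which nucleates fibres in cartilage and is a known transcript of activated tumour fibroblasts, stood at 328 CPM in TGBC2TKB and 13.8 CPM in HuH28, with 0 counts in 14 lines. By the measure of at least 10 CPM in 1 line and 10 times the next line, 8 chains were single-line, 5 of them fibrillar (COL1A2, COL2A1, COL3A1, COL5A2 and COL11A1). COL27A1, a fibrillar chain of cartilage, was the broadest of the class after COL1A1, with 225 CPM in Mz-ChA-2, 124 CPM in SNU-1079, a median of 19.2 CPM and 0.149 CPM in Sk-ChA-1.

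The 6 type IV genes lie in the human genome as 3 pairs that start next to each other on opposite strands. In the RefSeq table of GRCh38.p14, the starts of COL4A1 and COL4A2 were 127 bases apart, those of COL4A5 and COL4A6 380 bases and those of COL4A3 and COL4A4 419 bases. Windows from 250 bases before to 50 bases after each start therefore shared 226 bases for the first pair, 121 for the second and 82 for the third. The windows of the first and second pairs are shown because the genes of each pair share that stretch. They are chr13:110307108-110307407 (minus strand) for COL4A1, chr13:110307034-110307333 (plus) for COL4A2, chrX:108439588-108439887 (plus) for COL4A5 and chrX:108439409-108439708 (minus) for COL4A6, each printed 5′ to 3′ on its gene's strand from RefSeq. Capitals mark GGGCGG and CCAAT, searched on both strands, so that CCGCCC and ATTGG mark the reverse strand.
COL4A1: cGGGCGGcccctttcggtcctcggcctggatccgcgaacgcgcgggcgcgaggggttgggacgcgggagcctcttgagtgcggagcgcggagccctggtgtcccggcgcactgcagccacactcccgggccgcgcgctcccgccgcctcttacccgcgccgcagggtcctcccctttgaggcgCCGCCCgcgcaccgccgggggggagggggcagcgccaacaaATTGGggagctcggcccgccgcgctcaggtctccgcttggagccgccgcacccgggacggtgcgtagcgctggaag
COL4A2: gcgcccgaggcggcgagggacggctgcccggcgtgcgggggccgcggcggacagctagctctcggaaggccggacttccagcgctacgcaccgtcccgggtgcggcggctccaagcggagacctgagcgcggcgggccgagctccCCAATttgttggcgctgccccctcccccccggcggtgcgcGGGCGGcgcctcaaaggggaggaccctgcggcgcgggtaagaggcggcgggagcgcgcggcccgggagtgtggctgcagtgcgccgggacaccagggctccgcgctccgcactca
COL4A5: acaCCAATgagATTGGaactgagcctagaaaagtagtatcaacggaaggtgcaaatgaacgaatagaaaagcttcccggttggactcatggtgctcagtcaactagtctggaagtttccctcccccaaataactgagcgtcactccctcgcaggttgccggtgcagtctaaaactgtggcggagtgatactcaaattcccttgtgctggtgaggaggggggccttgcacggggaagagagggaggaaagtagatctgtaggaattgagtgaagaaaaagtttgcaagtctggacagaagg
COL4A6: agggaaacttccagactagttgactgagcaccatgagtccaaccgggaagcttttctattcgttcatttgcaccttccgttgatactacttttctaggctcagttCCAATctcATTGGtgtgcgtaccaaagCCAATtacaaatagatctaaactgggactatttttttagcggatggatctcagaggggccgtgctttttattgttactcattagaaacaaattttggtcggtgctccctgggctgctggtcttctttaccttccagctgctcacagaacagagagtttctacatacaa

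The COL4A1 window held 45 CG dinucleotides and that of COL4A2 45, against a median of 22 over 15842 windows of protein-coding genes, while that of COL4A5 held 8 and that of COL4A6 7. The letters GGGCGG occurred in 18 of the 32 collagen genes with a window in the table, against 58.5% of the 15842. CCAAT occurred in 10 of the 32, against 36.4%, and TATAAA, on both strands, in 5 of the 32, against 9.63%.

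The levels of both chains of each type IV pair moved together over the lines. Pearson's r was lowest for COL4A5 with COL4A6, while Spearman's rho was lowest for COL4A1 with COL4A2. COL4A1 (NM_001845) stood at 646 CPM in SNU-1079, 636 CPM in HuH28, 197 CPM in OCUG-1 and 113 CPM in TFK-1, with a median of 0.792 CPM and 0 counts in TGBC18TKB. COL4A2 (NM_001846), its partner in the common type IV molecule, stood at 924 CPM in HuH28, 900 CPM in SNU-1079, 466 CPM in OCUG-1 and 134 CPM in TGBC14TKB, with a median of 2.58 CPM and 0 counts in OZ. Both chains were at 10 CPM in 7 lines, and Pearson's r of their log2 CPM over the 20 lines was 0.93 (Spearman's rho 0.81), or 0.92 without HuH28. Divided by length, COL4A1 was a median of 0.679 times COL4A2 (range 0.178 to 1.37) in the 14 lines with a ratio, those with more than 3 counts of both. Only SNU-245 had 1 chain at 10 CPM or more and the other below 1 CPM, with 13.9 CPM of COL4A2 and 0.0979 CPM, 1 count, of COL4A1. Lower down, NOZ had 37 counts of COL4A2 and 1 of COL4A1, and TGBC18TKB 9 and 0.

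COL4A3 and COL4A4, chains of the glomerular and alveolar membrane, had r = 0.93 and rho = 0.93 over 20 lines. COL4A4 was highest in TFK-1, at 236 CPM, and HuH28, at 179 CPM, and COL4A3 in TFK-1, at 85.1 CPM, and SNU-1079, at 67.4 CPM. COL4A5 and COL4A6 had r = 0.83 and rho = 0.84, but at unequal levels. COL4A5 stood at 357 CPM in Mz-ChA-2, 300 CPM in OZ and 257 CPM in SNU-478, with a median of 42.3 CPM, and COL4A6 at 226 CPM in Mz-ChA-2, 29.4 CPM in SNU-478 and 27.4 CPM in OZ, with a median of 2.27 CPM. Divided by length, COL4A5 was a median of 15.9 times COL4A6 over 13 lines (range 1.44 to 172). COL4A5 reached 10 CPM in 14 lines, and COL4A6 reached it in 4 of those and stayed below 1 CPM in 2. TGBC2TKB, for example, had 176 CPM of COL4A5 and 1.07 CPM of COL4A6, and HuCCT1 104 CPM and 2.3 CPM. All of these coefficients describe 20 libraries that share a scaling.

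Chains of the same molecule outside type IV had lower coefficients. Over the same 20 lines r was 0.46 for COL1A1 and COL1A2, 0.49 for COL5A1 and COL5A2 (0.12 without HuH28), 0.49 for COL6A1 and COL6A2, 0.48 for COL6A1 and COL6A3, and 0.23 for COL9A2 and COL9A3. COL3A1 and COL5A2, which are neighbours on chromosome 2 and are not chains of 1 molecule, had r = 0.77, and 0.37 without HuH28.

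**Figure D3:**
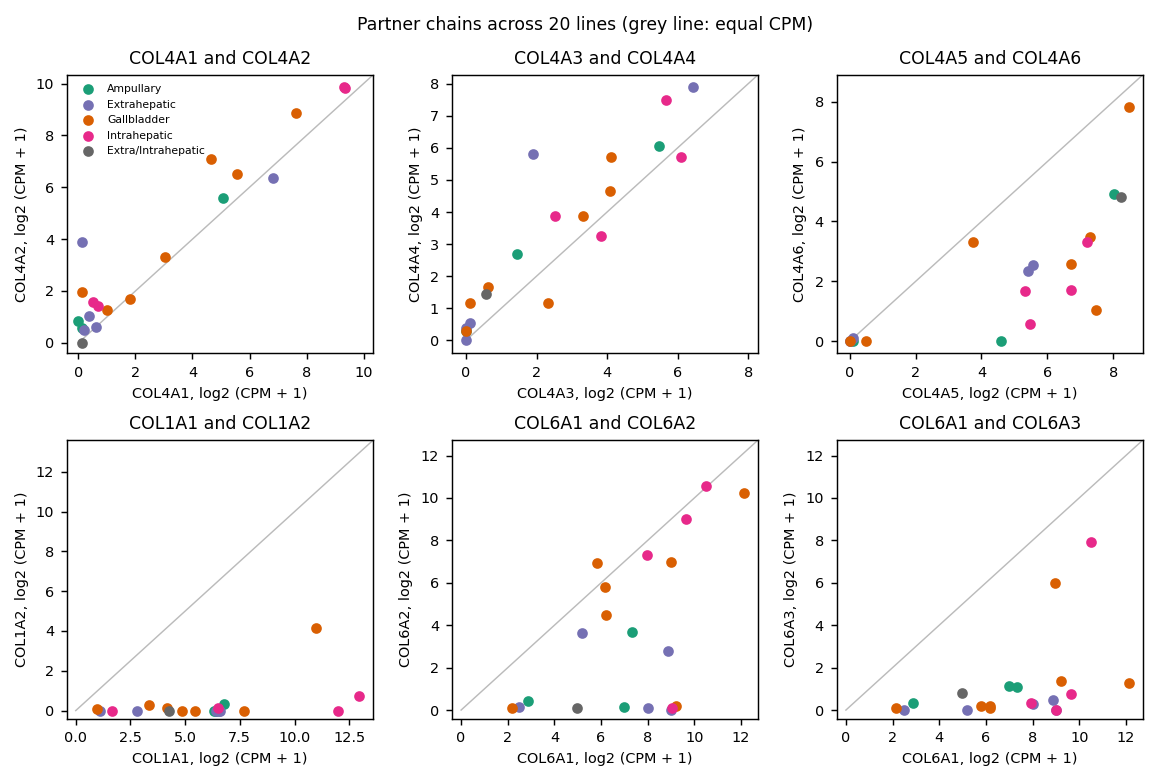
Levels, as log2 (CPM + 1), of 6 pairs of partner chains in 20 lines, 1 point per line coloured by labelled site, with a grey line at equal CPM. The type IV pairs, in the upper row, have r = 0.93, 0.93 and 0.83, while COL1A2 is below 1 CPM in every line but TGBC2TKB, at 16.8 CPM. COL4A6 is at or below COL4A5 in each line.

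Type VI chains were unevenly matched as well. COL6A1 (NM_001848) stood at 4490 CPM in OCUG-1, 1455 CPM in HuH28 and 799 CPM in HuCCT1, with a median of 203 CPM and a lowest value of 3.49 CPM in SNU-308. COL6A2, its neighbour on chromosome 21 and the second chain of the same molecule, stood at 1530 CPM in HuH28, 1205 CPM in OCUG-1 and 520 CPM in HuCCT1, with a median of 8.69 CPM. Divided by length, COL6A1 was a median of 2.66 times COL6A2 (range 0.367 to 63.8) in the 12 lines with a ratio. COL6A1 reached 10 CPM in 17 lines, and in 6 of those COL6A2 was below 1 CPM. NOZ, for example, had 599 CPM of COL6A1 and 0.157 CPM of COL6A2, TKKK 520 CPM and 0.0828 CPM, and Sk-ChA-1 506 CPM and 0 counts. COL6A3, the third and longest chain, was below 1 CPM in 11 of the 17 lines and above 10 CPM in 2, at 244 CPM in HuH28 and 62.1 CPM in TGBC2TKB.

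Chains that hold epithelium to its basement membrane were among the broadest. COL7A1 (NM_000094), of the anchoring fibril, stood at 898 CPM in SNU-478, 868 CPM in HuCCT1 and 448 CPM in SNU-308, with a median of 105 CPM, at least 10 CPM in 18 lines and a lowest value of 0.777 CPM in OCUG-1. COL17A1 (NM_000494) stood at 889 CPM in SNU-245, 488 CPM in HuCCT1 and 383 CPM in EGI-1, with a median of 27.9 CPM, and was at 0.0708 CPM in TFK-1, 0.0856 CPM in HuH28 and 0.156 CPM in Mz-ChA-2. COL18A1 (NM_030582) stood at 1808 CPM in SNU-1079, 638 CPM in HuH28 and 540 CPM in SNU-1196, with a median of 96.7 CPM and a lowest value of 9.5 CPM in SNU-245. HuCCT1 was high for both anchoring chains, and SNU-245 combined the most COL17A1 with the least COL18A1.

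Fibril-associated chains were uneven. COL12A1, which coats type I fibres, stood at 4069 CPM in HuH28, 430 CPM in TFK-1 and 258 CPM in Sk-ChA-1, with a median of 37.9 CPM and 0 counts in SNU-245. SNU-1079, with the second most COL1A1, had 0.575 CPM of COL12A1. COL9A3, a chain of the type IX collagen of cartilage, stood at 814 CPM in SNU-1196, 499 CPM in SNU-869, 183 CPM in NOZ and, at the low end, 0.257 CPM in HuH28. COL12A1 and COL9A3 gave the lowest coefficient among the 24 described chains, r = -0.64 over 20 lines and -0.59 without HuH28. COL8A1, a short-chain collagen of vessel walls, stood at 687 CPM in HuH28, 277 CPM in G415, 33.3 CPM in TGBC2TKB, 29.8 CPM in NOZ and 20 CPM in HuCCT1, and below 1 CPM in the other 15 lines. COL13A1, a transmembrane collagen, was highest in NOZ, at 283 CPM, and G415, at 103 CPM.

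TGBC14TKB, a Gallbladder Primary line, carried a pair of chains that were nearly silent elsewhere. COL21A1, a fibril-associated chain, stood at 275 CPM there and at 3.81 CPM in the next line, OCUG-1. COL25A1, a transmembrane collagen known from neurons, stood at 175 CPM there and at or below 0.156 CPM, no more than 2 counts, in all other lines. COL20A1, at 33.9 CPM in SNU-1079 and 0.599 CPM in HuH28, was the remaining single-line chain.

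Other genes most like 5 chains were ranked among 16590 genes by Pearson's r of log2 CPM over 20 lines. For COL1A1 they were IL1R1, ATRNL1 and ADAM12, each at r = 0.81, for COL4A1 UBAP2L (0.83), KRABD3 (0.81) and ITPR1 (0.80), for COL17A1 TMCC3 (0.84), STYK1 (0.78) and CCDC73 (0.77), and for COL18A1 LAMC1 (0.74), PIGS (0.74) and DRAM1 (0.73). For COL7A1 they were MIR711 (0.89), UCN2 (0.88) and PACS1 (0.76). MIR711 lies within COL7A1 and UCN2 is its neighbour on chromosome 3, at up to 3.67 CPM of MIR711 and 17.8 CPM of UCN2. The strand setting of the authors' counting is not given, and how many of those reads belong to COL7A1 was not tested.

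The labelled site was compared next, over 19 lines without OZ, with each site set against the unweighted mean of the other 3 in edgeR's quasi-likelihood test with Benjamini-Hochberg adjustment over 16615 genes. Of the 44 chains, 33 passed the filter on low counts. In the joint test of 4 sites, 0 of 33 chains passed an adjusted p of 0.05, as against 0.00602% of all genes tested. At an unadjusted p under 0.05 there were 10 of 33, as against 10.7% of all genes, and DESeq2 called 2 of the 27 chains it gave an adjusted p, COL1A1 and COL5A2, as against 1.76% of all genes. The smallest adjusted p values in edgeR were 0.143 for both COL5A2 and COL3A1 and 0.309 for COL8A1.

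COL1A1, COL3A1, COL5A1 and COL5A2 each had their highest level in an Intrahepatic line, but no site was uniformly high. COL5A2 stood at 1468 CPM in HuH28, 107 CPM in HuCCT1, 7.64 CPM in SNU-1079 and 0.828 CPM in TKKK, the 4 Intrahepatic lines. It ranged from 0.902 to 2.45 CPM in Ampullary, 0.686 to 2.96 CPM in Extrahepatic and 0.7 to 15.8 CPM in Gallbladder lines. HuH28 and HuCCT1 thus lay above every line of the other sites, and TKKK lay among the lowest. The log2 difference of the fitted site means was 7.40 (SE 1.17, edgeR adjusted p = 0.0836). COL3A1 differed by 9.73 (adjusted p = 0.103) and COL8A1 by 7.84 (adjusted p = 0.164) in the same fit, and for COL3A1 only HuH28, at 588 CPM, exceeded 1 CPM among the Intrahepatic lines. Without HuH28 the difference was 4.02 for COL5A2 (adjusted p = 0.264) and 3.10 for COL8A1 (adjusted p = 0.917), and COL3A1 no longer passed the filter. With repository as a covariate it was 4.24 for COL5A2 (adjusted p = 0.649), 3.09 for COL8A1 (adjusted p = 0.881) and 2.08 for COL3A1 (adjusted p = 0.91). COL1A1 stood at 7970, 4093, 89.2 and 2.15 CPM in HuH28, SNU-1079, HuCCT1 and TKKK, against 78.3 to 107 CPM in Ampullary, 1.19 to 96.6 CPM in Extrahepatic and 0.942 to 2015 CPM in Gallbladder lines, so that the groups overlapped.

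For Intrahepatic lines 0 of 33 chains passed, as against 0% of all genes tested, and 14 of 33 had an unadjusted p under 0.05, as against 9.47% of all genes. DESeq2 called 5 of 27, COL1A1, COL5A1, COL5A2, COL6A2 and COL9A3, as against 1.57% of all genes. The edgeR value of COL5A2 passed when HuCCT1, SNU-1079 or TKKK was left out, and not when HuH28 or any line of another site was. The median log2 difference was 1.49 over the 33 chains and 0.04 over all genes. How far this median, the 14 chains at an unadjusted p and the DESeq2 calls rest on HuH28 was not tested. The fibroblast marker sum was also highest in an Intrahepatic line, HuH28, at 1648 CPM, with 8.53, 8.46 and 2.4 CPM in HuCCT1, SNU-1079 and TKKK, so those markers were low in SNU-1079 at 4093 CPM of COL1A1.

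For Extrahepatic lines 0 of 33 chains passed, as against 0% of all genes tested, 3 had an unadjusted p under 0.05, as against 7.01% of all genes, and DESeq2 called 2 of 25, COL5A1 and COL5A2, as against 1.15% of all genes. COL5A1 was between 0 and 3.19 CPM in the 5 Extrahepatic lines, and up to 30.9 CPM in Ampullary, 491 CPM in Gallbladder and 3353 CPM in Intrahepatic lines. Its log2 difference was -6.91 and that of COL6A3 -5.87 (edgeR adjusted p = 0.647 for each), and that of COL5A2 -3.45 (adjusted p = 0.572). COL6A3 differed by -3.33 without HuH28 (adjusted p = 0.804) and by -1.09 with repository as a covariate (adjusted p = 0.96), and COL5A2 by -1.07 with that covariate (adjusted p = 0.921). For Gallbladder lines 0 of 33 passed, as against 0% of all genes tested, 6 had an unadjusted p under 0.05, as against 12.3% of all genes, and DESeq2 called 0 of 27, as against 2.35% of all genes. The smallest p values there were those of COL21A1, at 5.79 (adjusted p = 0.221), COL11A1, at 9.42 (0.254), and COL8A1, at 5.34 (0.264). COL21A1 differed by 1.36 without TGBC14TKB (adjusted p = 0.646), COL8A1 by 3.14 without G415 (adjusted p = 0.506), and COL11A1, at 328 CPM in TGBC2TKB and at most 3.08 CPM in the other Gallbladder lines, no longer passed the filter without TGBC2TKB, SNU-308 or HuH28. With repository as a covariate COL21A1 differed by 3.58 (adjusted p = 0.647) and COL8A1 by 2.04 (adjusted p = 0.844). COL11A1 had 0 counts in all Ampullary and all Extrahepatic lines, so its fitted value depends on the prior count, and DESeq2 gave 18.57.

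For Ampullary lines 0 of 33 passed, as against 0.00602% of all genes tested, 2 had an unadjusted p under 0.05, as against 5.25% of all genes, and DESeq2 called 0 of 25, as against 0.825% of all genes. COL8A1 had 0, 0 and 0.0845 CPM in the 3 Ampullary lines (log2 difference -8.46), COL5A2 0.902, 1.11 and 2.45 CPM (-3.39), and COL5A3 differed by -6.54 (edgeR adjusted p = 0.923 for each). COL5A2 differed by -2.24 without HuH28 (adjusted p = 1) and by -2.13 with repository as a covariate (adjusted p = 1). COL1A1 was even in these 3 lines, at 78.3, 84.7 and 107 CPM, and COL17A1 stood at 131, 167 and 300 CPM. The median log2 difference over the 33 chains was -1.49 in Ampullary, -1.53 in Extrahepatic and 0.94 in Gallbladder lines, against medians over all genes of -0.11, -0.02 and 0.11 in the same comparisons.

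**Figure D4:**
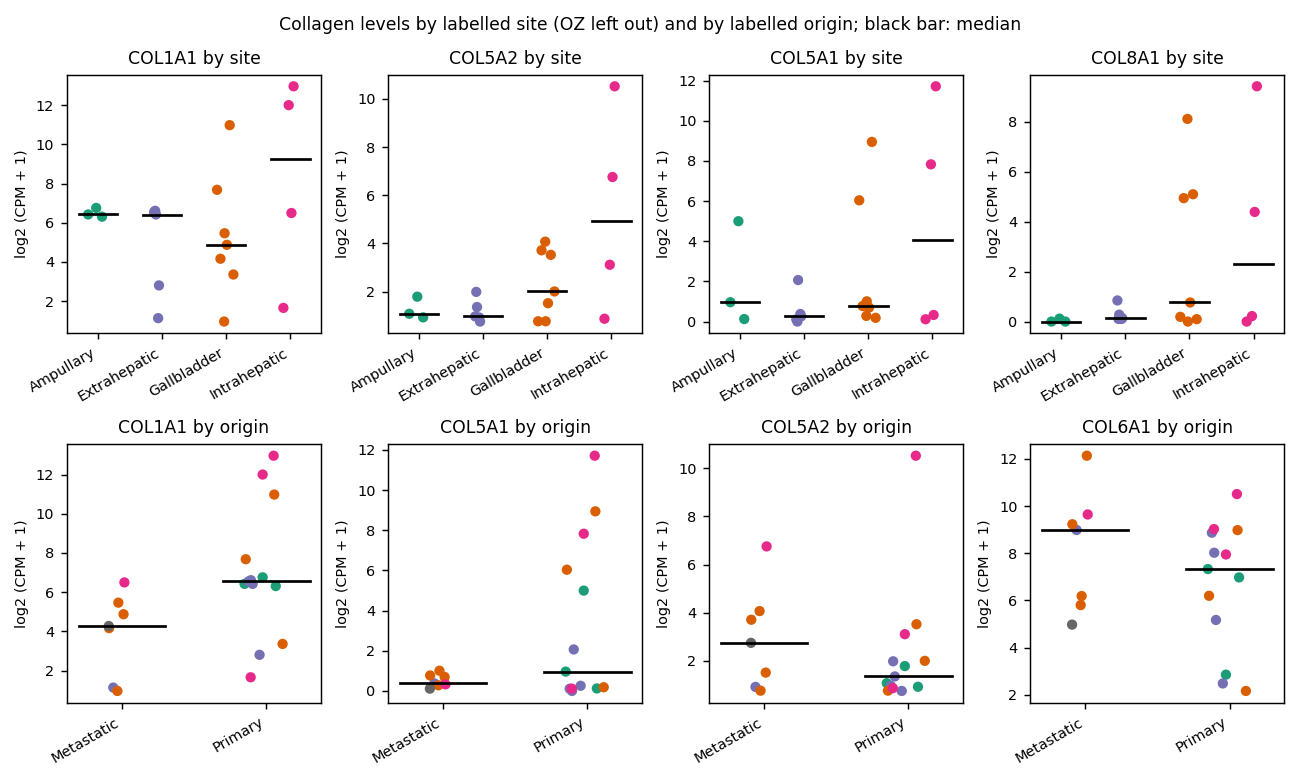
Levels, as log2 (CPM + 1), of chains by labelled site (upper row, 19 lines without OZ) and by labelled origin (lower row, 7 Metastatic and 13 Primary lines), 1 point per line coloured by site, with a bar at the group median. The high points for COL5A1 and COL1A1 are all in Primary lines, and each site with a high point also holds lines near 0 for COL5A1.

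By labelled origin, type I and type V chains had their highest levels in Primary lines. COL5A1 lay between 0.0831 and 1.01 CPM in the 7 Metastatic lines, with a median of 0.298 CPM, against 0 to 3353 CPM in the 13 Primary lines, with a median of 0.949 CPM. COL1A1 lay between 0.942 and 89.2 CPM in Metastatic lines, with a median of 18.3 CPM, against 2.15 to 7970 CPM in Primary lines, with a median of 92.4 CPM. The groups overlapped for both chains. The log2 difference of the fitted means was -9.45 for COL5A1 (SE 2.68, edgeR adjusted p = 0.395), -5.36 for COL1A1 (SE 1.69, adjusted p = 0.454) and -3.05 for COL28A1 (adjusted p = 0.538). COL6A1 had a median of 506 CPM in Metastatic lines and 160 CPM in Primary lines (log2 difference 1.63, adjusted p = 0.719), and COL2A1 exceeded 1 CPM in 1 Metastatic line only.

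Of the 44 chains, 25 passed the filter in this fit, and 0 passed an adjusted p of 0.05, as against 0% of 14843 genes tested. At an unadjusted p under 0.05 there were 5 of 25, as against 7.73% of all genes, and DESeq2 called 0 of the 16 chains it gave an adjusted p, as against 0.736% of all genes. The median log2 difference was -0.55 over the 25 chains and -0.02 over all genes. Origin and site are not crossed evenly, since 4 of the 7 Metastatic lines are Gallbladder lines and none is Ampullary.

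By repository, the only label that could mark handling, summed collagen had a median of 4121 CPM in 4 HSRRB lines, 1575 CPM in 6 KCLB lines, 1274 CPM in 6 RIKEN lines, 1548 CPM in 2 DSMZ lines and 2124 CPM in 2 lines from Zurich Uni. The 3 larger sets overlapped, from 845 to 24481 CPM in HSRRB, 757 to 8714 CPM in KCLB and 869 to 4524 CPM in RIKEN lines. The lines with the 3 highest fibrillar sums came from 3 different repositories.

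The lines were also placed along a score of epithelial minus mesenchymal marker genes with no collagen among them, from 6.15 in SNU-245, the most epithelial line, to -9.69 in HuH28. Fitted as a slope per 1 SD of that score over 20 lines, 8 of 33 chains passed an edgeR adjusted p of 0.05, which is 24.2%, as against 7.9% of the 16623 genes tested. All 8 rose toward the mesenchymal end, a direction called for 4.36% of all genes. They were 4 fibrillar chains, COL3A1 (log2 slope -3.35, SE 0.45, adjusted p = 0.000149), COL5A2 (-2.40, adjusted p = 0.00152), COL1A1 (-2.27, adjusted p = 0.0146) and COL5A1 (-2.65, adjusted p = 0.0198), the type VI chains COL6A3 (-3.17, adjusted p = 0.00129) and COL6A2 (-2.62, adjusted p = 0.0491), and COL8A1 (-3.59, adjusted p = 0.00117) and COL14A1, a fibril-associated chain (-1.54, adjusted p = 0.0251). No type IV chain passed, with COL4A2 at -1.66 (adjusted p = 0.103). COL11A1 (-4.46, adjusted p = 0.0518) and COL17A1, which had the opposite sign (2.12, adjusted p = 0.052), lay just outside the threshold. The median slope was -0.83 over the 33 chains and 0.00 over all genes.

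This relation leaned on HuH28, the line at the far end of the score. Without it 2 of 28 chains passed, as against 3.25% of all genes, COL8A1 (slope -3.79, edgeR adjusted p = 0.0142) and COL6A3 (-3.26, adjusted p = 0.0454), while COL1A1 stood at -2.31 (adjusted p = 0.115), COL5A1 at -2.44 (adjusted p = 0.255) COL5A2 at -1.10 (adjusted p = 0.611) and COL14A1 at -0.94 (adjusted p = 0.447), and COL3A1 no longer passed the filter on low counts. With repository in the fit 1 of 33 chains passed, COL18A1 (-1.64, adjusted p = 0.0366), as against 3.69% of all genes, and with site in the fit and OZ left out 0 of 36 passed, as against 1.34%, with COL5A2 at -1.51 (adjusted p = 0.166). DESeq2 called 12 of 33 chains, as against 14.2% of all genes, COL4A2 among them and COL14A1 not, and 10 of them toward the mesenchymal end, as against 6.48%. Within the 6 KCLB lines r with the score was -0.92 for COL1A1, -0.85 for COL5A2, -0.84 for COL5A1, -0.83 for COL6A2, -0.42 for COL8A1, -0.39 for COL3A1, -0.36 for COL6A3 and 0.49 for COL14A1. Within the 6 RIKEN lines it was -0.93 for COL8A1, -0.60 for COL6A2, -0.58 for COL5A2, -0.39 for COL6A3, -0.32 for COL3A1, -0.27 for COL14A1, -0.15 for COL5A1 and 0.13 for COL1A1. COL1A1 and COL14A1 thus differed in sign between these sets of lines. In the KCLB lines, however, COL14A1 was at most 0.979 CPM, COL8A1 0.164 CPM, COL6A3 1.11 CPM and COL3A1 1.03 CPM. Their coefficients there rest on few counts, and the sign of COL14A1 cannot be told from counting error. COL6A2 was at 157 CPM in SNU-1079, 11.8 CPM in SNU-869 and at most 0.338 CPM in the other KCLB lines. SNU-1079, at -3.21, is the only KCLB line with a negative score, and coefficients without it were not computed. Of the RIKEN lines, TGBC2TKB had 4.52 CPM of COL3A1 and 4.19 CPM of COL14A1. The others had at most 0.18 and 0.166 CPM, so those coefficients rest mostly on TGBC2TKB.

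**Figure D5:**
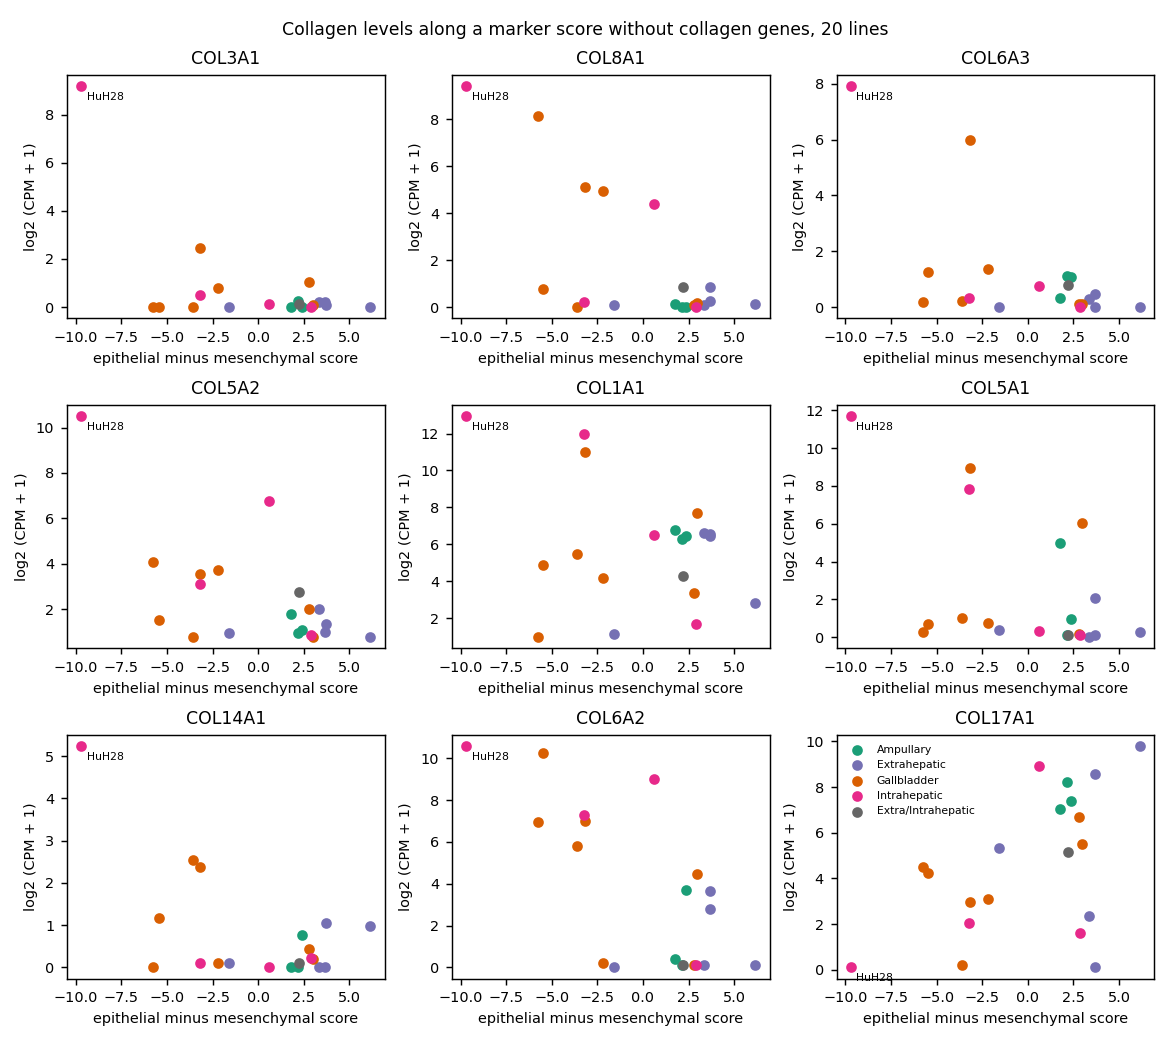
Levels, as log2 (CPM + 1), of the 8 chains that passed along the epithelial minus mesenchymal score, and of COL17A1, against that score in 20 lines, coloured by labelled site. HuH28, at -9.69, is the highest point for each of the 8 chains and 1 of the lowest for COL17A1.

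Genes that process, bind or degrade collagen were called along the same score in part, to be read against the 4.36% of all genes called in that direction. Of 15 genes of prolyl and lysyl hydroxylation, 7 rose toward the mesenchymal end, among them P3H1 (log2 slope -1.60), PLOD1 (-0.88) and COLGALT1 (-0.78), which modify the chain in the endoplasmic reticulum. Of 10 tested genes of folding and export 3 rose, led by SERPINH1, the collagen chaperone (-0.80). Of 11 genes of propeptide removal and crosslinking 4 rose, among them LOXL3 (-1.24) and LOXL2 (-2.91), both lysyl oxidases. Of 8 collagen receptors 3 rose, with DDR2, a kinase that binds fibrillar collagen, at -1.44. Of 7 genes of collagen breakdown 4 rose, with MMP2, a gelatinase, at -5.83 and MMP1, a collagenase, at -3.35. No gene of these lists was called in the other direction by edgeR. These list counts come from the fit that includes HuH28, and of the genes named so far all but LOXL2 and MMP1 were highest in HuH28. Without HuH28 the share of all genes called toward the mesenchymal end was 1.4%. The lists were not counted in that fit, so how far their calls depend on HuH28 was not tested. In the site and origin comparisons edgeR called 0 genes of each list. At an unadjusted p under 0.05 there were 6 of 8 collagen receptors in Intrahepatic lines, as against 9.47% of all genes. For propeptide removal and crosslinking there were 5 of 11 in the joint site test (10.7% of all genes) and 5 of 11 in Gallbladder lines (12.3%). Collagen breakdown had 3 of 7 in each of the joint site test (10.7%), Extrahepatic (7.01%), Gallbladder (12.3%) and Intrahepatic lines (9.47%). It had 1 of 7 in Ampullary lines (5.25%) and 2 of 5 in Metastatic lines (7.73%). The other counts were 0 to 3 per list of 6 to 15 genes, as against 5.25% to 12.3% of all genes. Levels of the listed genes peaked in the same line in many cases. HuH28 was highest for SERPINH1 (986 CPM), P3H1 (535 CPM), MMP2 (3760 CPM) and ITGA11, a receptor for type I collagen (3162 CPM), while TGBC2TKB was highest for LOXL2 (669 CPM) and PLOD2 (1399 CPM) and OCUG-1 for MMP1 (4230 CPM).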

How the data were processed

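Poly(A) RNA of 20 lines was sequenced with a stranded Illumina kit, per the labels' protocols. The deposited values are raw counts of reads per RefSeq entry, made by the authors with Trimmomatic, TopHat2 2.0.8, Picard 1.69 and featureCounts, with hg19 as the build, per the submitters' processing notes. The strand setting is not given in the sources used here. Symbols came from a RefSeq gene table for 23508 of the 24222 entries and from GENCODE for 359. The remaining 355 held 0.484% of counts and stayed in the fits under their identifiers.

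All genes were fitted together in R 4.3.3 by the two-sided quasi-likelihood test of edgeR 4.0.16, after TMM scaling and filterByExpr and with robust dispersions, with Benjamini-Hochberg adjustment over all genes. The fits were also run on simulated counts with known shifts and a common dispersion for all genes. Those counts hold no chains high in a single line, so that run does not show how the fits perform on such chains. DESeq2 1.42.0 was an alternative, beside RLE scaling, no filter, covariates and each line left out. Log2 CPM used a prior count of 2. Lengths are those of the longest coding GENCODE transcript. Correlations are descriptions with no test. The p-values measure the spread between lines, each with 1 library. The labels give no batch, so the repository was used.

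The collagen genes, classes, pathway lists, score and tests were chosen with earlier results of these data known. Named genes were the chains reaching 100 CPM in 1 line, those past a threshold, the 3 of smallest p per contrast, single-line chains, the 3 most alike genes of 5 chains, and the pathway genes of smallest p among each list. ITGA11, PLOD2 and single marker genes outside that rule were chosen after their values were seen. 1 listed immune marker is not reported here.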

Additional observations from a re-analysis of the deposited data

Results flagged for a closer look

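In groups of 4 to 10 lines, 108 combinations of gene or class sum and group were tested for 1 line far from the others. The criterion is one that chance meets in about 1 of 20 groups of unselected, normally spread values. It was met by 14. The genes were chosen for reaching 100 CPM in at least 1 line, and many of their values were tied at no counts. That rate therefore does not hold here, and the 14 cannot be set against it. Each of the 14 is given with the level of the nearest line of the same group.

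Among Gallbladder lines COL2A1 was at 1054 CPM in Mz-ChA-2, against 0.247 CPM in TGBC2TKB, and Mz-ChA-2 also stood apart for COL2A1 among Metastatic lines, at 1054 CPM against 0.0786 CPM in NOZ. COL25A1 was at 175 CPM in TGBC14TKB, against 0.156 CPM in Mz-ChA-2, and COL21A1 at 275 CPM in TGBC14TKB, against 3.81 CPM in OCUG-1. COL11A1 was at 328 CPM in TGBC2TKB, against 3.08 CPM in SNU-308, and COL6A3 at 62.1 CPM in TGBC2TKB, against 1.57 CPM in NOZ. The summed CPM of the other collagens was 5808 in OCUG-1, against 1432 in NOZ, and COL6A1 made up 4490 CPM of it.

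Among Intrahepatic lines COL3A1 was at 588 CPM in HuH28, against 0.411 CPM in SNU-1079, and COL13A1 had 0 counts in TKKK, against 31.2 CPM in HuCCT1, the next lowest. Among Extrahepatic lines COL4A1 was at 113 CPM in TFK-1, against 0.532 CPM in SNU-1196.

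The other 4 were at the level of a few counts. COL2A1 was at 0.166 CPM in TKKK among Intrahepatic lines, COL25A1 at 0.0979 CPM in SNU-245 among Extrahepatic lines and at 0.156 CPM in Mz-ChA-2 among Metastatic lines, each with 0 counts in the rest of its group. COL3A1 was at 0.707 CPM in NOZ among Metastatic lines, against 0.0853 CPM in HuCCT1.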

How the results depend on the processing

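The count of chains called by site was 0 in edgeR under RLE scaling, no filter, repository or origin as covariates and OZ taken as either site, for the joint test and each site, and the count by origin was 0 under every alternative run, DESeq2 included. DESeq2 called 2 in the joint test, 2 in Extrahepatic and 5 in Intrahepatic lines, beside 283, 182 and 253 of all genes in the same order. Leaving out 1 line gave 0 to 1 in the joint test, with 1 when TKKK was left out, beside 0.0121% of all genes. In Intrahepatic lines it gave 0 to 1. There the 1 came when HuCCT1 (0.0422% of all genes), SNU-1079 (0.00607%) or TKKK (0.0182%) was left out. Along the score the 8 calls became 15 of 44 with no filter, beside 8.89% of all genes. They became 1 with repository as a covariate (3.69% of all genes) and 0 with site as a covariate and without OZ (1.34%). Over the lines left out there were 2 to 9, with 2 when HuH28 was left out (3.25%) and 9 when HuCCT1 (7.39%) or TFK-1 was. The cause of these differences was not tested. COL6A2 lost its call along the score in 17 of the 20 fits with a line left out. The r of COL3A1 and COL5A2 was 0.37 without HuH28. Values of named chains kept their direction in each alternative fit that tested them, with 547 on the same side of the threshold, 40 that no longer passed it and 6 that newly passed. The 547 include DESeq2 fits that gave no adjusted p, which were taken as not passing. Fits in which a chain did not pass the filter on low counts are not among these numbers. No paired analysis was possible because each sample is a different line and no line was sequenced more than once. The labels carry no replicate numbers, and the numbers used here follow the order of deposition. Chains below about 0.3 CPM rest on 3 counts or fewer, so absence cannot be told from a low level.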

Other observations

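Beyond collagens, lines differed in other cell type markers, given here as values beside those of single chains. G415, with 277 CPM of COL8A1, had the highest summed level of endothelial markers of all lines, with TIE1 at 315 CPM and TEK at 83.9 CPM but PECAM1 at 0.0724 CPM and CDH5 at 0.29 CPM. Its part in the level of COL8A1, a chain of vessel walls, was not tested, and HuH28, with 687 CPM of COL8A1, had KDR at 55.3 CPM as its only endothelial marker above 1 CPM. TGBC2TKB, which had 2015 CPM of COL1A1 and most of the COL1A2 of the series, expressed THY1 at 383 CPM and LUM at 90.6 CPM, both fibroblast markers, with KRT19 at 184 CPM and EPCAM at 79.8 CPM. SNU-1079, with 4093 CPM of COL1A1, had 1 of 10 fibroblast markers at 1 CPM or above, PDGFRB at 6.74 CPM (5.05 CPM in HuH28), and 5 at 0 counts, THY1 and POSTN among them, with 975 CPM of KRT19 and 157 CPM of EPCAM. The summed fibroblast markers were 1648 CPM in HuH28, 495 CPM in TGBC2TKB and 8.46 CPM in SNU-1079, the 3 lines with the most COL1A1.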
